A study of Mus musculus with 20 samples.

Results

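The genes described here are the nuclear genes that encode the subunits of the 5 enzyme complexes of oxidative phosphorylation. They were chosen by symbol: the Nduf genes of complex I, Sdha to Sdhd of complex II, the Uqcr genes and Cyc1 of complex III, the Cox4 to Cox8 genes of complex IV and the Atp5 genes of complex V, each with a mean of at least 0.5 CPM, the counts scaled to a common library total, over the 20 libraries. The rule took 80 of 32962 named genes. Of 83 genes with a fitting symbol, 3 fell below the limit: Cox7b2 at 0.206 CPM, Cox8b at 0.140 CPM and Cox8c at 0.00507 CPM. The members just inside it were Ndufa13 at 0.628 CPM and Cox7a1 at 0.852 CPM. By role, 35 members belong to complex I, 4 to complex II, 9 to complex III, 15 to complex IV and 17 to complex V. Ndufa4 was counted with complex IV, where it is now placed despite its name.

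The study measured messenger RNA in trigeminal ganglia (TG), where facial sensory neurons have their cell bodies, and in the nucleus accumbens (NAc), a forebrain region of reward circuits. The 10 mice were male C57BL/6J animals aged 9 to 12 weeks, and each gave 1 TG and 1 NAc library. Treated mice, labelled OIH, received morphine and the others vehicle, at doses not given in the sources used here, and RNA was taken 24 h after the last injection. There were thus 4 groups of 5 libraries: TG of morphine mice, TG of vehicle mice, NAc of morphine mice and NAc of vehicle mice. No transgene or deletion is labelled, and all groups share strain, sex and age. The question was which transcripts differ between morphine and vehicle in each tissue. The deposited values are read counts estimated per transcript, and a library held between 52401909 and 76110111 of them. The members took 0.839% to 0.878% of a TG library and 0.786% to 0.817% of a NAc library. All 80 passed the filter on low counts in every main fit.

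In oxidative phosphorylation, complexes I and II take electrons from NADH and succinate, complex III passes them to cytochrome c and complex IV passes them to oxygen. Complexes I, III and IV pump protons, and complex V, the ATP synthase, uses the proton gradient to make ATP. Complex II is wholly encoded in the nucleus. The other 4 complexes also hold subunits encoded by mitochondrial DNA, whose genes are not analysed here. Neurons draw most of their ATP from this pathway. Several complex IV subunits exist as a general form and a form known from heart and skeletal muscle, lung or testis.

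Promoters of these genes are known to be bound by the factors NRF1, GABPA, YY1 and the oestrogen-related receptor ERRA, so 4 fixed motifs were searched on both strands from 250 bases before to 50 bases after each start site. RefSeq promoters of build GRCm38.p6 were found for 65 of the 80 members. A gene was counted if any of its promoters held the motif. Shares of promoters count each promoter singly, so they are not in the same unit as shares of genes. The NRF1 motif, whose letters stand in capitals in the windows printed here, was present in 17 of 65 members (26.2%), against 4.6% of 32851 promoters in the table and 12.6% of 6532 genes of at least 20 CPM. The GABPA motif CCGGAAG was present in 17 members (26.2%), against 8.86% of all promoters and 19.7% of genes of at least 20 CPM. The YY1 motif was present in 5 members (7.69%), against 0.852% of all promoters and 2.82% of genes of at least 20 CPM. The ERRA motif TCAAGGTCA was present in 2 members (3.08%), against 0.423% of all promoters and 0.245% of genes of at least 20 CPM. In total 33 members (50.8%) held at least 1 of the 4, against 31.6% of genes of at least 20 CPM. No match of one motif overlapped a match of another in the members. The windows below belong to genes on which the treatment, tissue and paralog results turn, each read 5′ to 3′ on the gene's own strand, which is the minus strand for every one, with the motif in capitals.
Sdha, NRF1, chr13:74350314-74350353: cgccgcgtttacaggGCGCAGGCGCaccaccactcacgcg
Sdha, NRF1, chr13:74350271-74350310: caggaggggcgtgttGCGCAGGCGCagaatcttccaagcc
Sdhd, NRF1, chr9:50603904-50603943: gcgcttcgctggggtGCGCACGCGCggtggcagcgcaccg
Atp5g2, NRF1, chr15:102671065-102671104: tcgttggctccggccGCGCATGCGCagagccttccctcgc
Cox6a1, NRF1, chr5:115349051-115349090: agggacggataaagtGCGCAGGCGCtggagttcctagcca
Cox6b1, GABPA on the opposite strand, chr7:30626121-30626157: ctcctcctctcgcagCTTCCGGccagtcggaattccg
Atp5g3, ERRA on the opposite strand, chr2:73911355-73911393: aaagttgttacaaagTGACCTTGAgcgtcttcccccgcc
A match is a run of letters and was not shown to be bound in these tissues.

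Libraries were compared first by known markers, since other cell types in a dissection bear on several members. Summed markers of sensory neurons ran from 5199 to 5934 CPM in TG and from 233 to 322 CPM in NAc, and those of medium spiny neurons, the main neurons of the NAc, from 205 to 229 CPM in TG and from 1578 to 4767 CPM in NAc. These levels go with the tissue labels. The medium spiny neuron sum was scattered in NAc of vehicle mice, from 1578 CPM in replicate 2, the lowest, to 4767 CPM in replicate 5, the highest. In NAc of morphine mice it ran from 3012 to 3642 CPM. A pair of TG libraries stood apart by skeletal muscle transcripts: the 10 muscle markers summed to 639 CPM in TG morphine replicate 4 and 243 CPM in TG vehicle replicate 1, against 4.11 to 20.5 CPM in the other 8 TG libraries and 5.13 to 7.33 CPM in NAc. All 10 markers were detected, among them Atp2a1 and Myh1. Pituitary markers ran from 19.6 to 1412 CPM and red blood cell markers from 294 to 1185 CPM over the TG libraries. In NAc the 8 oligodendrocyte markers summed to 3087 to 3442 CPM in morphine mice and 3512 to 4034 CPM in vehicle mice. All 8 were lower with morphine, and edgeR called none. Schwann cell and endothelium sums of the NAc groups did not overlap either, while medium spiny neuron and astrocyte sums did. The Schwann cell list shares Mbp with the oligodendrocyte list, so its sum in NAc does not stand for a separate cell type. In TG the oligodendrocyte sums overlapped, at 4136 to 5790 CPM in morphine mice and 4073 to 5384 CPM in vehicle mice. All 8 markers were higher with morphine there, and edgeR called none. The part of cell makeup in the morphine comparisons was not tested. Levels are given throughout as CPM scaled over all 20 libraries.

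Morphine left the subunit genes of the TG within a narrow range of the vehicle level. None of the 80 members passed the threshold in TG (edgeR quasi-likelihood test, Benjamini-Hochberg adjusted p under 0.05 over 29394 features), where 0.180% of all features did. At an unadjusted p under 0.05 there were 8 members against a background of 10.1% of features, with 1 higher and 7 lower against 5.11% and 4.94%. The median log2 fold change of the members was -0.0026, beside -0.0022 for all features tested. Among the 74 members of at least 20 CPM the log2 fold changes ran from -0.08 to 0.10, with standard errors between 0.01 and 0.05. No member had its 5 morphine libraries all above or all below the 5 vehicle libraries, which 1.44% and 1.11% of features had. DESeq2 called 1 member, Cox6b1, and 2.41% of features, while limma voom called 0 members and 0.276% of features.

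Cox6b1 encodes the complex IV subunit that faces the space between the membranes and had the smallest p among the members in TG. It measured 138, 142, 136, 140 and 138 CPM in TG of morphine mice, against 148, 140, 142, 149 and 153 CPM in TG of vehicle mice. One morphine library lay above the lowest vehicle library, so the groups overlapped. The log2 fold change was -0.08 ± 0.02 (SE), with an edgeR adjusted p of 0.254 and a DESeq2 adjusted p of 0.0307. Ndufs7, an iron-sulfur subunit of complex I near the quinone site, had the smallest p on the higher side. It measured 49.4, 46.6, 48.5, 50.6 and 48.2 CPM in TG of morphine mice, against 45.1, 42.8, 43.5, 46.3 and 48.8 CPM in TG of vehicle mice. The groups overlapped through a single vehicle library, and the log2 fold change was 0.10 ± 0.03 (SE, edgeR adjusted p = 0.357). The core subunits had smaller values, and none was called. Ndufs1, which carries iron-sulfur clusters in complex I, had a log2 fold change of -0.02 ± 0.02, Sdha, the succinate-oxidising subunit of complex II, one of -0.01 ± 0.02, and Atp5a1, the alpha subunit of ATP synthase, one of 0.01 ± 0.01 (SE).

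The low members were the least certain in this comparison. Cox6a2, the heart and muscle form of a complex IV subunit, had a log2 fold change of 0.44 ± 1.05 (SE, edgeR adjusted p = 0.935), which became -0.10 ± 0.36 without the muscle-bearing libraries. Ndufa13, a complex I subunit whose counts here rest on 1 RefSeq transcript, measured 0.474, 0.532, 0.3845, 0.843 and 0.8115 CPM in TG of morphine mice, against 0.172, 0.286, 0.55, 0.535 and 0.163 CPM in TG of vehicle mice. Its groups overlapped and its log2 fold change was 0.83 ± 0.40 (SE, edgeR adjusted p = 0.538). The table holds 20554 transcripts with no gene match, and whether any belong to Ndufa13 was not tested. Without the muscle-bearing libraries 0 of 80 members were called in TG and 2 had an unadjusted p under 0.05.

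In the NAc the same genes also gave no call: 0 of 80 members and 0% of 29910 features passed the threshold in edgeR. An unadjusted p under 0.05 was found for 2 members against a background of 5.71%, both of them lower, as were 3.32% of features. DESeq2 called 0 members and 0.819% of features, and limma voom called 0 members and 0.0134% of features. The median log2 fold change was -0.0016 over the members and -0.0071 over all features. Among members of at least 20 CPM the values ran from -0.10 to 0.07, with standard errors between 0.03 and 0.09, so that small changes were less detectable here than in the TG. Ndufb2, an accessory subunit of complex I, measured 7.11, 7.69, 8.26, 6.88 and 7.13 CPM in NAc of morphine mice, against 8.48, 8.03, 9.35, 8.55 and 9.72 CPM in NAc of vehicle mice. Only morphine replicate 3 reached into the vehicle range, and the log2 fold change was -0.25 ± 0.08 (SE, edgeR adjusted p = 0.687). Ndufa2, another accessory subunit of complex I, measured 24.9, 24.7, 24.7, 23.0 and 23.8 CPM in NAc of morphine mice, against 26.0, 25.55, 25.8, 27.4 and 25.05 CPM in NAc of vehicle mice. It was the 1 member whose morphine libraries all lay below the vehicle libraries, which 1.07% of features did, and its log2 fold change was -0.10 ± 0.04 (SE, edgeR adjusted p = 0.86). No member had its morphine libraries all above, which 0.649% of features had.

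**Figure D1:**
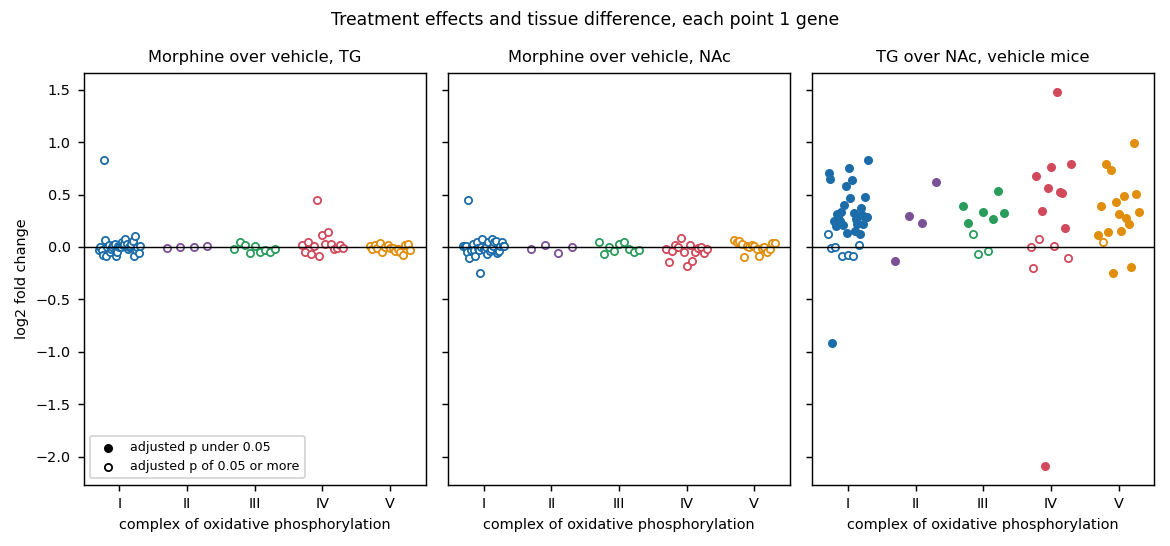
Log2 fold change of each of the 80 genes (y axis) by complex (x axis) for morphine over vehicle in TG, morphine over vehicle in NAc, and TG over NAc in vehicle mice, with filled points for an edgeR adjusted p under 0.05. In both treatment panels all points are open and most lie within 0.1 of 0, while 64 of 80 are filled in the tissue panel.

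No member passed the test for a difference between the treatment effects of the tissues. This test of the difference, the effect in TG minus the effect in NAc over all 20 libraries, called 0 of 80 members and 0.0394% of 32998 features, and 3 members had an unadjusted p under 0.05 against 6.81% of features. DESeq2 called 0 members and 0.691% of features, and limma voom 0 members and 0% of features. The smallest p belonged to Ndufs1, with a difference of -0.09 ± 0.03 on the log2 scale, and to Ndufa2, with 0.17 ± 0.07 (SE, edgeR adjusted p of 0.621 and 0.631). Averaged over both tissues, morphine gave 0 called members, beside 0.227% of features, and 9 members with an unadjusted p under 0.05 against a background of 8.98%. DESeq2 and limma voom also called 0 members there, beside 1.74% and 0.433% of features. Ndufb2 had the smallest p, with a mean log2 fold change of -0.17 ± 0.05, and Atp5a1 the smallest on the higher side, with 0.04 ± 0.02 (SE, edgeR adjusted p of 0.235 and 0.456).

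Tissue was the condition across which these genes varied. In vehicle mice 59 of 80 members were higher in TG than in NAc, where 32.9% of all 32998 features were higher, and 5 were lower, where 34.5% of features were lower (edgeR quasi-likelihood test, adjusted p under 0.05). Among members of at least 20 CPM, 56 of 74 were higher and 3 lower, beside 48.2% and 37.7% of 9303 features of that level. The median log2 fold change was 0.28 over the members and -0.06 over all features. At 20 CPM or more it was 0.28 over the members and 0.10 over all features of that level. For 54 members the 5 TG libraries lay above all 5 NAc libraries and for 3 they lay below, against 27.9% and 27.3% of features. The split depends on the scaling. With library size alone it was 44 higher and 20 lower, beside 28.3% and 40.1% of all features. The median was then 0.13 over the members and -0.21 over all features. A scaling factor per library moves all features of that library alike. The gap of 0.34 between members and all features therefore could hardly change, and it is no check on the scaling. Without TG vehicle replicate 2 the lower count was 3. In bulk tissue, fewer cells of a type and less RNA per cell cannot be told apart.

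The members are short, with a median transcript length of 732 nt against 2839 nt over features with a length, and length went with the tissue difference. Other features of at least 20 CPM and between 600 and 1000 nt had a median log2 fold change of 0.36 and were higher in 66.8% of cases and lower in 22.4%, beside a median of 0.37, 80.8% and 3.85% for the 26 members of that length. Between 1000 and 2000 nt the other features were higher in 59.3% and lower in 28.2% of cases, beside 78.9% and 0.00% of 19 members. The medians were 0.27 for other features and 0.29 for members. Up to 600 nt other features were higher in 39.2% and lower in 43.1% of cases, beside 65.2% and 4.35% of 23 members. The medians were -0.02 and 0.23. Between 2000 and 4000 nt they were higher in 50.6% and lower in 35.6% of cases, beside 83.3% and 16.7% of 6 members, with medians of 0.14 and 0.24. A scaling that follows length gave 42 higher and 21 lower members with a median of 0.09. Over all features it gave 29.1% higher and 39.2% lower with a median of -0.19, so the gap to the members was 0.28.

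In the 5 morphine mice the tissue difference gave 58 members higher in TG, where 33.4% of features were higher, and 4 lower, where 34.9% were lower. All 58 were among the 59 of the vehicle mice, and 3 of the lower members were shared. Under the main scaling (TMM), the summed levels of every complex kept this order within the mice of each treatment, with an exception in complex II. The sums were not made under another scaling, so whether their order depends on it was not tested. Complex I summed to 2250 ± 35.5 CPM in TG and 1848 ± 58.9 CPM in NAc of morphine mice, and to 2247 ± 56.2 CPM in TG and 1838 ± 28.1 CPM in NAc of vehicle mice (SD, n = 5 each). Complex V summed to 3617 ± 42.4 CPM in TG and 3024 ± 100.4 CPM in NAc of morphine mice, and to 3628 ± 71.2 CPM in TG and 2949 ± 53.3 CPM in NAc of vehicle mice. Complex IV reached 1659 ± 29.5 CPM in TG against 1346 ± 88.6 CPM in NAc of morphine mice. Complex III reached 918 ± 14.7 CPM in TG against 792.5 ± 20.3 CPM in NAc of morphine mice. Complex II was closest between the tissues, with 619 ± 7.11 CPM in TG against 588 ± 33.2 CPM in NAc of vehicle mice, where the 646 CPM of NAc vehicle replicate 2 lay above every TG library.

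**Figure D2:**
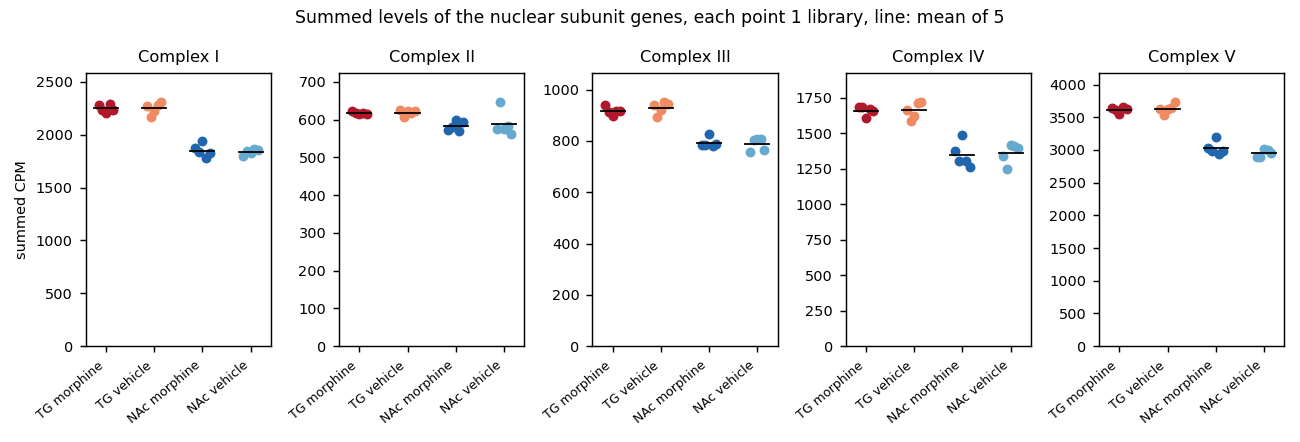
Summed CPM under the main scaling (TMM) of the member genes of each complex (y axis, from 0) in each library, by group, with a line at the mean of 5. In complexes I, III, IV and V every TG library lies above every NAc library, while in complex II NAc vehicle replicate 2 reaches 646 CPM; morphine and vehicle libraries of a tissue overlap throughout.

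By complex, 27 of 35 complex I members were higher in TG and 1 lower, 3 of 4 in complex II were higher and 1 lower, and 6 of 9 in complex III were higher with 0 lower. In complex IV 9 of 15 were higher and 1 lower, and in complex V 14 of 17 were higher and 2 lower. Ndufv3, an accessory subunit beside the NADH-binding site of complex I, measured 59.8, 58.8, 59.05, 65.95 and 63.4 CPM in TG against 35.4, 35.6, 33.9, 35.6 and 32.2 CPM in NAc of vehicle mice, a log2 fold change of 0.83 ± 0.04 (SE, edgeR adjusted p = 1.02e-12). Ndufa4 measured 219.6, 216.5, 218, 233 and 233 CPM in TG against 126, 121, 133, 139 and 128 CPM in NAc of vehicle mice, a log2 fold change of 0.79 ± 0.04. Every TG library of both genes lay well above every NAc library. Atp5mpl, a small membrane subunit of ATP synthase, measured 75.7, 72.8, 72.8, 75.1 and 77.3 CPM in TG against 37.6, 32.2, 38.7, 40.4 and 39.3 CPM in NAc of vehicle mice. Its log2 fold change of 0.99 ± 0.05 was the highest of any member of at least 20 CPM. Atp5d, the delta subunit of the rotating stalk, measured 158, 151, 159, 164 and 169 CPM in TG against 92.45, 83.35, 96.0, 98.8 and 92.7 CPM in NAc of vehicle mice, a log2 fold change of 0.79 ± 0.05. These 4 genes stayed called higher in TG with RLE factors, library size alone and the length-dependent scaling.

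Most core subunits followed the same direction by smaller amounts, but Cox4i1 was not called and Sdha, described below, was lower in TG. Atp5b, the catalytic beta subunit, had the highest level per length in both tissues, 573 CPM per kb in TG and 436 CPM per kb in NAc of vehicle mice, and a log2 fold change of 0.39 ± 0.03. Cyc1, which is cytochrome c1, was higher by 0.39 ± 0.05, Uqcrc1, a core subunit of complex III, by 0.33 ± 0.04 and Uqcrfs1, the Rieske iron-sulfur subunit, by 0.26 ± 0.03 on the log2 scale in TG relative to NAc. Ndufv1, which binds NADH and flavin, was higher by 0.29 ± 0.03 and Ndufs1 by 0.26 ± 0.02. The Uqcrfs1 call was lost under the length-dependent scaling. Cox5a, a matrix-side subunit of complex IV, was higher by 0.67 ± 0.04. Atp5a1 was called higher, with a log2 fold change of 0.11 ± 0.02, but lower with library size alone, at -0.048, and with the length-dependent scaling, at -0.074, and the call was lost with named genes only, at 0.057. Cox4i1, the general form of the subunit that binds regulatory nucleotides in complex IV, did not pass the test, with 249.5 ± 9.70 CPM in TG and 249.6 ± 11.9 CPM in NAc of vehicle mice (SD, n = 5 each). It was called lower in TG with library size alone, at a log2 fold change of -0.16, and with the length-dependent scaling, at -0.22.

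**Figure D3:**
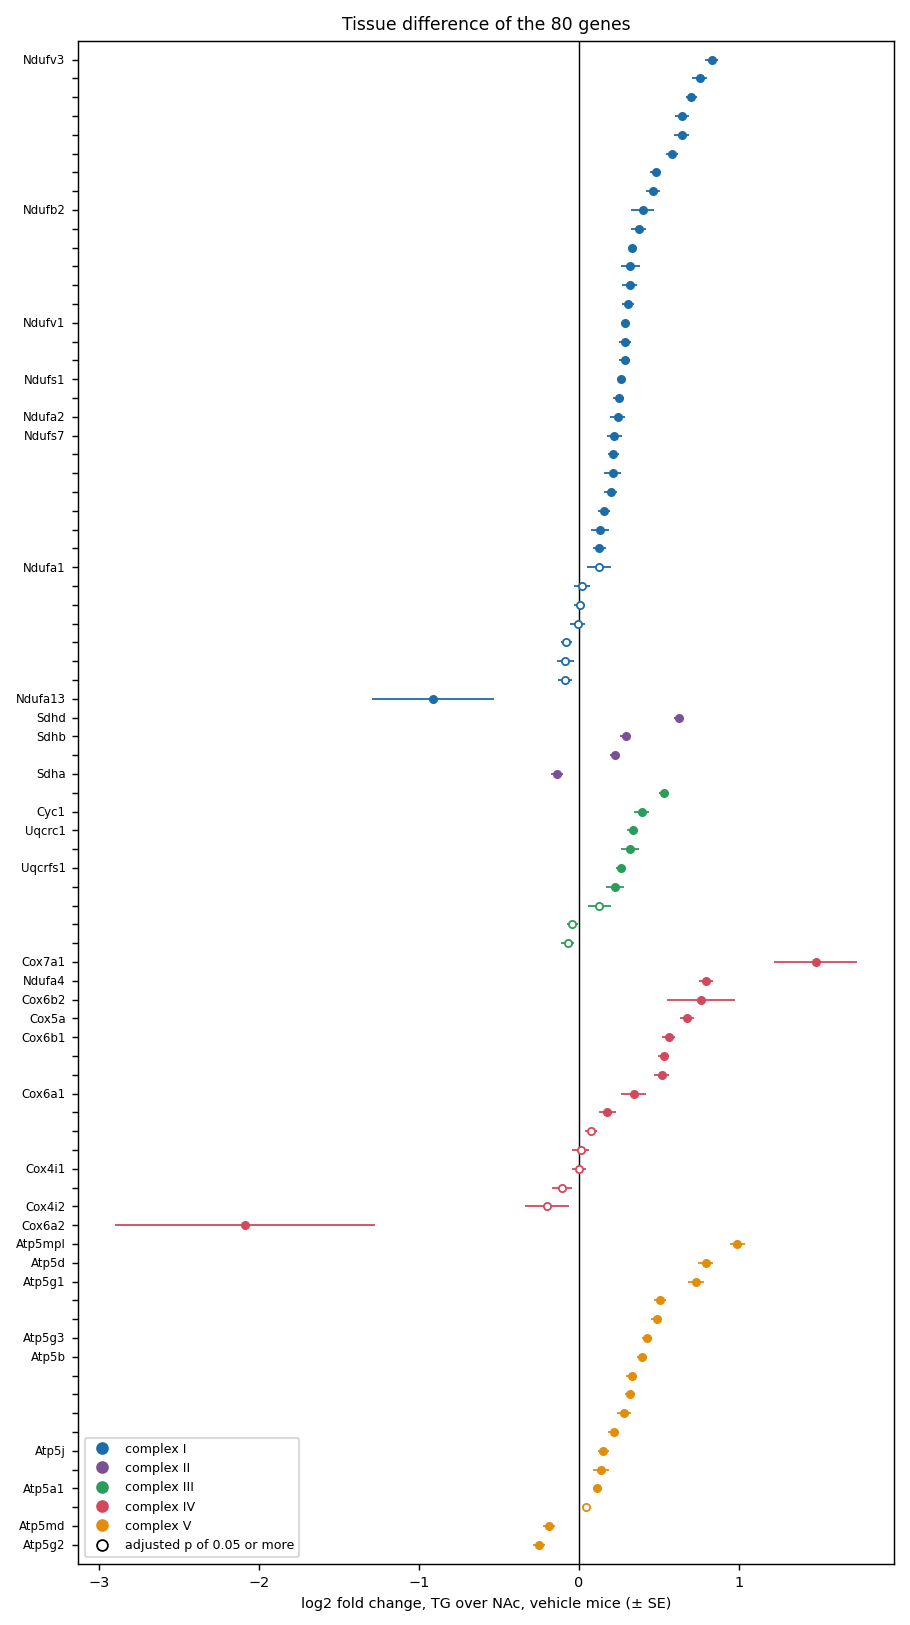
Log2 fold change of TG over NAc in vehicle mice (x axis, with SE) for each of the 80 genes, ordered within its complex and with names for genes given in the text, with filled points for an edgeR adjusted p under 0.05. Most genes of every complex lie to the right of 0, and Cox6a2, Ndufa13, Atp5g2, Atp5md and Sdha are the 5 called lower.

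The lower genes included the largest subunit of complex II. Sdha, whose promoter windows with the NRF1 motif are printed above, measured 342, 335, 345, 332 and 341 CPM in TG against 364, 419, 368, 363 and 351 CPM in NAc of vehicle mice. Every NAc library lay above every TG library, and the log2 fold change was -0.14 ± 0.04 (SE, edgeR adjusted p = 0.00264). NAc vehicle replicate 2, the library with the lowest medium spiny neuron sum, was the highest, and without it the log2 fold change was -0.09 ± 0.02. The other named complex II genes went the opposite way: Sdhb, the iron-sulfur subunit, was higher in TG by 0.29 ± 0.03, and Sdhd, a membrane anchor that also holds the NRF1 motif, by 0.62 ± 0.03 on the log2 scale. Over the 17 members with the NRF1 motif 14 were higher and 2 lower in TG, with a median log2 fold change of 0.32, and over the 17 with the GABPA motif 13 were higher and 1 lower, with a median of 0.29. Over all 80 members these values were 59, 5 and 0.28, and no difference between the sets was tested. Atp5md, a small subunit known from ATP synthase dimers, measured 66.2, 60.5, 63.4, 64.8 and 65.0 CPM in TG against 71.5, 67.6, 72.4, 75.35 and 77.9 CPM in NAc of vehicle mice, a log2 fold change of -0.19 ± 0.04. Its groups did not overlap. Ndufa13, with means of 0.341 CPM in TG and 0.643 CPM in NAc of vehicle mice, was called lower, with a log2 fold change of -0.91 ± 0.38 and an edgeR adjusted p of 0.042, a call that was lost without TG vehicle replicate 1, 2 or 5 or NAc vehicle replicate 1, 2, 4 or 5. With the mouse as a block, from the pairing of tissues, the Ndufa13 call was lost too, at -1.02 ± 0.45 (edgeR adjusted p = 0.0707). It was also lost with no filter on low counts, with single transcripts and without the muscle-bearing libraries (edgeR adjusted p of 0.054, 0.0745 and 0.105), and in morphine mice Ndufa13 was not called, at -0.53 ± 0.37 (edgeR adjusted p = 0.218).

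The c subunit, which forms the rotor ring of ATP synthase, is encoded by Atp5g1, Atp5g2 and Atp5g3. Their mature proteins are known to be the same and their import sequences differ. Atp5g1 gave 29.7%, 29.9%, 30.9%, 29.99% and 30.95% of the counts of the 3 genes in TG against 24.3%, 22.5%, 24.55%, 24.8% and 22.7% in NAc of vehicle mice. Atp5g2 gave 14.7%, 14.8%, 14.4%, 15.1% and 14.6% in TG against 23.5%, 21.6%, 22.25%, 22.7% and 24.3% in NAc of vehicle mice. Every TG library lay above every NAc library for Atp5g1 and below every one for Atp5g2. In morphine mice the shares were 29.3 ± 0.667% in TG and 23.8 ± 1.08% in NAc for Atp5g1, and 14.8 ± 0.353% in TG and 22.7 ± 0.382% in NAc for Atp5g2 (SD, n = 5 each). By level, Atp5g1 was higher in TG by 0.73 ± 0.05 and Atp5g3 by 0.43 ± 0.03, on the log2 scale, while Atp5g2 had a log2 fold change of -0.25 ± 0.04 (edgeR adjusted p of 1.42e-10, 6.02e-10 and 1.03e-05). Corrected for length, Atp5g3 was the main source of c subunit transcripts at 72.1 ± 0.277% in TG and 65.75 ± 1.41% in NAc of vehicle mice, a value that rests on a model of 4715 nt for 1 of the Atp5g1 transcripts. Estimated counts divide reads between such similar genes by a model, so these shares carry that uncertainty.

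Transcript choice also differed by tissue. Of the 5 members whose transcript shares differed most, Ndufv3 is known for a longer form that adds a middle stretch of protein. The longer transcript, NM_030087.2, held 54.1%, 56.2%, 55.8%, 55.3% and 57.4% of Ndufv3 counts in TG of morphine mice, 54.0%, 53.6%, 51.5%, 52.2% and 52.1% in TG of vehicle mice, 41.2%, 44.4%, 40.9%, 45.7% and 46.8% in NAc of morphine mice and 47.3%, 46.7%, 35.5%, 42.2% and 37.0% in NAc of vehicle mice. Every TG library lay above every NAc library. Tested as single transcripts in vehicle mice, the longer form was higher in TG by 1.17 ± 0.09 and the shorter one by 0.55 ± 0.06 on the log2 scale (edgeR adjusted p of 1.42e-09 and 3.74e-07). In TG the lowest morphine library lay just above the highest vehicle library, but the longer transcript itself was not called, with a log2 fold change of 0.09 ± 0.04 (SE, edgeR adjusted p = 0.82). For Atp5g1 the shorter transcript, NM_001161419.1, held 44.1 ± 1.94% of counts in TG and 27.2 ± 4.285% in NAc of vehicle mice (SD, n = 5 each), and it was higher in TG by 1.44 ± 0.11. For Cox4i2, the form of subunit 4 known from lung and low oxygen, NM_053091.2 held 33.4 ± 4.11% in TG and 54.7 ± 6.00% in NAc of vehicle mice, at a total level of at most 2.45 CPM in any library. In morphine mice its shares were 40.3 ± 6.29% in TG and 53.35 ± 10.65% in NAc, and the groups overlapped. Cox6b2 and Atp5j were the others, and their transcript shares, averaged over both treatments, differed between tissues by at most 7.595 and 5.715 percentage points.

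**Figure D4:**
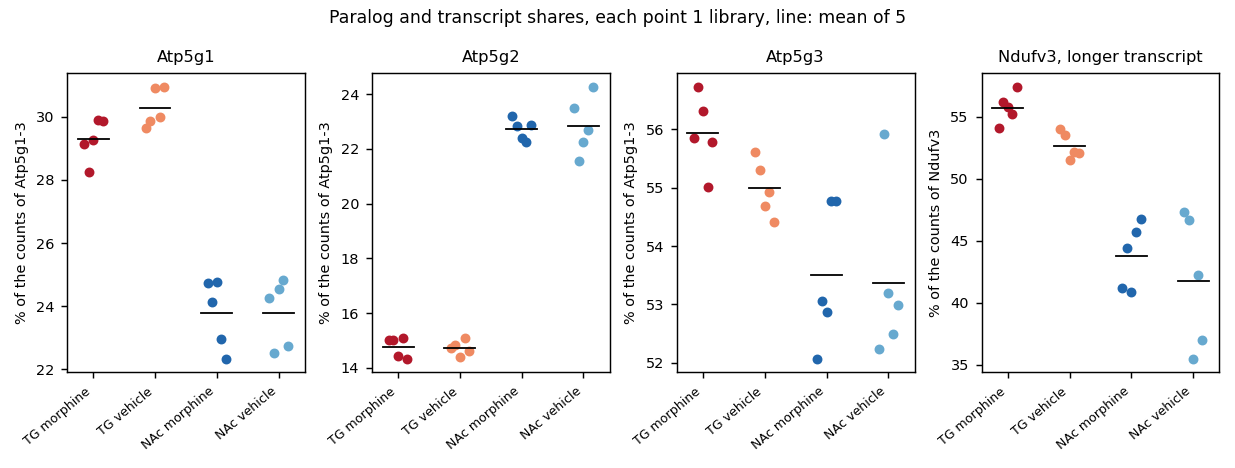
Share of Atp5g1, Atp5g2 and Atp5g3 in the counts of the 3 genes, and share of the longer transcript in the counts of Ndufv3 (y axes, in %, not starting at 0), in each library by group, with a line at the mean of 5. TG libraries lie above NAc libraries for Atp5g1 and Ndufv3 and below them for Atp5g2, while the tissues overlap for Atp5g3, where 1 NAc vehicle library reaches 55.9%.

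Of all members Cox6a2 varied most between the libraries of a TG group, with a coefficient of variation of 162% in morphine mice and 134% in vehicle mice. It measured 0.153, 0.266, 0.277, 3.01 and 0.155 CPM in TG of morphine mice, 1.895, 0.313, 0.146, 0.173 and 0.278 CPM in TG of vehicle mice, 2.61, 2.295, 3.085, 2.33 and 2.36 CPM in NAc of morphine mice and 2.52, 1.38, 2.895, 2.44 and 2.72 CPM in NAc of vehicle mice. The high TG libraries are those with skeletal muscle transcripts. In the NAc, where the muscle markers summed to at most 7.33 CPM, Cox6a2 was present in all 10 libraries and lowest in vehicle replicate 2. In mouse brain the gene is known from fast-spiking interneurons. The log2 fold change of Cox6a2 in TG over NAc was -2.09 ± 0.81 in vehicle mice (edgeR adjusted p = 0.0299), and -3.38 ± 0.29 without the muscle-bearing libraries (edgeR adjusted p = 2.46e-08). In morphine mice it was -1.72 ± 0.80 and was not called (edgeR adjusted p = 0.0654). With the muscle-bearing libraries kept, the call was lost when TG vehicle replicate 2, 3, 4 or 5 was left out, with adjusted p between 0.0657 and 0.068. Its general form, Cox6a1, was higher in TG by 0.34 ± 0.08, a call lost under the length-dependent scaling, and Cox6a2 gave 0.407 ± 0.551% of the counts of the pair in TG and 2.09 ± 0.344% in NAc of vehicle mice (SD, n = 5 each).

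Cox7a1, the heart and muscle form of another complex IV subunit, was higher in TG with or without muscle transcripts. It measured 1.055, 1.13, 1.23, 2.35 and 1.17 CPM in TG of morphine mice, 1.785, 1.075, 1.07, 1.05 and 1.29 CPM in TG of vehicle mice, 0.427, 0.4245, 0.265, 0.545 and 0.391 CPM in NAc of morphine mice and 0.487, 0.639, 0.348, 0.437 and 0.333 CPM in NAc of vehicle mice. The 8 TG libraries without raised muscle markers still ran from 1.05 to 1.29 CPM, above every NAc library. The log2 fold change of TG over NAc was 1.48 ± 0.26 in vehicle mice (edgeR adjusted p = 5.93e-05) and 1.32 ± 0.21 without the muscle-bearing libraries. Cox8b, the muscle form of subunit 8 and below the CPM limit of the rule, measured 1.455 CPM in TG morphine replicate 4 and 0.595 CPM in TG vehicle replicate 1, against at most 0.131 CPM in the other TG libraries and 0.121 CPM in NAc. Cox6b2, known from testis, averaged 1.38 CPM in TG against 0.66 CPM in NAc in morphine mice, and 1.27 CPM in TG against 0.75 CPM in NAc in vehicle mice. Its log2 fold change of TG over NAc was 0.76 ± 0.21 in vehicle mice (edgeR adjusted p = 0.00388). A non-coding RefSeq transcript of Cox6b2 held 51.4 ± 6.19% of its counts in TG and 47.1 ± 15.75% in NAc of vehicle mice (SD, n = 5 each). Tested as single transcripts, that form was called higher in TG (edgeR adjusted p = 0.00219). The coding forms with shares of at least 10% were not called (edgeR adjusted p of 0.533, 0.438 and 0.207). Cox7b2, also known from testis, was below the CPM limit and Cox4i2 did not pass the test, with a log2 fold change of -0.20 ± 0.14. Cox4i2 was called lower in TG with library size alone, at -0.35 ± 0.13, and with the length-dependent scaling, at -0.41 ± 0.13.

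**Figure D5:**
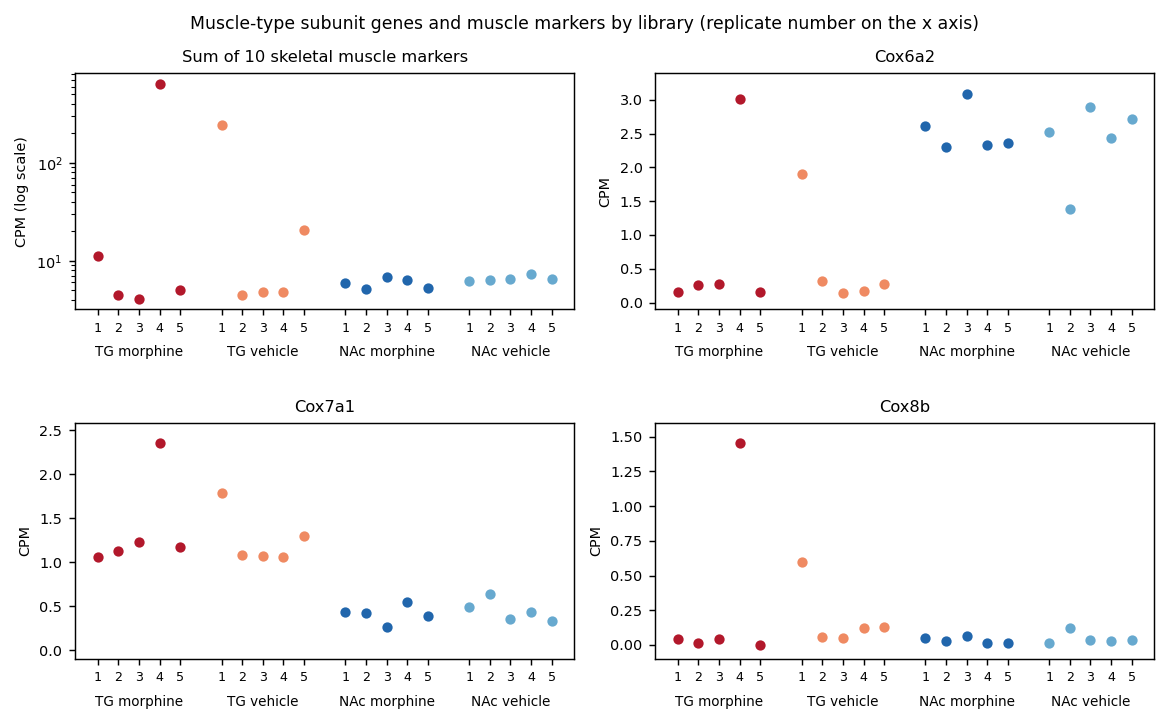
Summed CPM of 10 skeletal muscle markers (log scale) and CPM of Cox6a2, Cox7a1 and Cox8b (linear scales) in each of the 20 libraries, by group and replicate number. TG morphine replicate 4 and TG vehicle replicate 1 are the highest TG libraries in all 4 panels, at 639 and 243 CPM of muscle markers, and Cox6a2 is also present in every NAc library.

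Spread within a group was small. The median coefficient of variation of members of at least 20 CPM was 2.57% in TG of morphine mice, 3.53% in TG of vehicle mice, 4.18% in NAc of morphine mice and 4.86% in NAc of vehicle mice. Over all features of that level it was 3.89%, 4.435%, 5.80% and 9.04% in the same groups. Sdha varied least in TG of morphine mice, by 0.432%, and Ndufa1, a small accessory subunit of complex I, varied most in NAc of vehicle mice, by 14.3%.

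Other genes of the pathway were counted in fixed lists. With edgeR, 0 of their 191 genes tested were called for morphine in TG and 0 of 192 in NAc, in the test of the difference between tissues and in the mean over tissues. At an unadjusted p under 0.05 there were 18, 5, 9 and 18 genes in those 4 comparisons, which is 9.42%, 2.6%, 4.69% and 9.38% of the list genes, beside 10.1%, 5.71%, 6.81% and 8.98% of all features. DESeq2 called 6, 2, 0 and 4 of them, or 3.14%, 1.04%, 0% and 2.08%, beside 2.41%, 0.819%, 0.691% and 1.74% of all features, and limma voom called 0, 0, 0 and 1, beside 0.276%, 0.0134%, 0% and 0.433%. Aldoc, a glycolytic aldolase also known as an astrocyte marker, had the smallest p of the glycolysis list in TG, at 157 ± 4.33 CPM in morphine mice and 142 ± 6.715 CPM in vehicle mice (SD, n = 5 each), with a log2 fold change of 0.14 ± 0.03 (SE, edgeR adjusted p = 0.134). For the citric acid cycle, Ogdh, a subunit of the 2-oxoglutarate dehydrogenase complex, had the smallest p in TG, with a log2 fold change of -0.13 ± 0.03 (SE, edgeR adjusted p = 0.238). For carriers and import, Hspd1, the mitochondrial chaperonin, had one of -0.15 ± 0.03 in TG (edgeR adjusted p = 0.1455), and Tomm20, an outer membrane import receptor, one of 0.18 ± 0.05 in NAc (edgeR adjusted p = 0.63). Mrps9, of the small mitochondrial ribosomal subunit, had a mean log2 fold change of 0.11 ± 0.02 over both tissues (edgeR adjusted p = 0.071). Between tissues in vehicle mice, 50 of 78 genes of the mitochondrial ribosome were higher in TG and 10 lower. Of the assembly factors 23 of 44 were higher and 10 lower. The background for these and the following lists was 32.9% higher and 34.5% lower over all features. Over features of at least 20 CPM it was 48.2% and 37.7%. Of the citric acid cycle 9 of 17 were higher in TG and 3 lower, of glycolysis 9 of 17 and 3, and of carriers and import 10 of 13 and 2. Regulators of mitochondrial genes were split, with 6 of 16 higher and 6 lower. Ppargc1b, a coactivator of mitochondrial genes, was lower in TG, at 27.5 ± 1.55 CPM against 60.4 ± 8.07 CPM in NAc of vehicle mice, and Pdhb, a subunit of pyruvate dehydrogenase, was higher, at 163 ± 3.85 CPM against 97.3 ± 2.26 CPM (SD, n = 5 each). Ucp2, an inner membrane carrier, was higher in TG by 2.58 ± 0.15, in the list of alternative isoforms and uncoupling proteins, of which 4 of 7 tested were higher and 1 lower.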

How the data were processed

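RNA of 20 libraries was prepared with a stranded mRNA kit and sequenced, per the labels' protocols. The authors deposited expected counts, read counts estimated per transcript and not normalised; kallisto 0.43 and build GRCm38 are named in the submitters' processing notes. Its settings are not stated. The sources differ on whether 1 or both read ends were used, and lanes could not be tied to libraries, so no batch term was fitted. Of 107185 transcripts, 86631 (80.8%, with 90.0% of counts) were matched to genes by RefSeq id and summed. Unmatched transcripts stayed single features and hold 9.05% to 11.2% of a library. Sums were rounded to whole numbers.

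Tests used edgeR 4.0.16 quasi-likelihood fits (filterByExpr, TMM scaling, robust) with Benjamini-Hochberg adjustment over all features and a threshold of 0.05. Morphine and vehicle were compared in the 10 libraries of a tissue. Tissue, the difference between treatment effects and their mean used all 20. A standard error is the size of the fitted change over the square root of F. The code was tested on simulated data. DESeq2 1.42.0, limma 3.58.1 voom, other scalings and filters, single transcripts, blocks and each library left out were tried as alternatives. TG and NAc of a mouse come from 1 animal, per the labels; their deviations correlated between -0.0382 and 0.0153. Members and lists were chosen with earlier results of these data known. Genes were named by rule: the smallest p per comparison, the 5 most extreme tissue differences each way, core subunits, paralogs and the 5 largest transcript shifts. One gene under this rule is not reported here. Motif searches used RefSeq promoters of GRCm38.p6.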

Additional observations from a re-analysis of the deposited data

Results flagged for a closer look

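Among 180 groups of 5 libraries examined, for the 39 members under the naming rule and the sums of the complexes, 19 held a library far from the other 4 by Dixon's test, where chance flags about 1 group in 20. The muscle-bearing libraries hold 3 of these: Cox6a2 at 3.009 CPM in TG morphine replicate 4 and 1.895 CPM in TG vehicle replicate 1, and Cox7a1 at 2.348 CPM in TG morphine replicate 4. NAc vehicle replicate 2, which had the lowest medium spiny neuron markers, was high for Sdha at 419.4 CPM, for Uqcrfs1 at 87.89 CPM and for the complex II sum at 645.6 CPM, and low for Cox4i1 at 228.7 CPM and Cox6a1 at 89.52 CPM. The part of cell makeup in these values was not tested. NAc morphine replicate 3 was high for Cox5a at 97.6 CPM, Uqcrc1 at 158.2 CPM, Atp5b at 920.1 CPM, Cox7b at 98.77 CPM and the complex III sum at 828.6 CPM. Ndufa13 stood at 1.42 CPM in NAc morphine replicate 5 and 0.2565 CPM in NAc vehicle replicate 3. The other single values were Ndufs7 at 35.04 CPM in NAc vehicle replicate 3, Atp5c1 at 160.8 CPM in NAc vehicle replicate 1, Cox6b2 at 1.851 CPM in TG morphine replicate 1 and Atp5g3 at 164.1 CPM in TG vehicle replicate 2.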

How the results depend on the processing

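For morphine, the count of members called stayed at 0 under every alternative except DESeq2 in TG, which called 1. Leaving out 1 library gave medians from -0.0123 to 0.0040 in TG, -0.0201 to 0.0053 in NAc, -0.0189 to 0.0163 for the difference between tissues and -0.0162 to 0.0042 for the mean, with counts of 0 to 0. Between tissues, the count of members called higher ran from 57 to 59, that called lower from 3 to 7 and the median from 0.27 to 0.30 when 1 library was left out. The count called lower was 20 with library size alone, 21 with the length-dependent scaling, 10 with a mean of at least 1 CPM and 11 with named genes only. The medians were 0.13, 0.092, 0.24 and 0.23. Of all features 40.1%, 39.2%, 39.4% and 39.3% were called lower in the same order, with medians of -0.21, -0.19, -0.04 and -0.03. All 44 members called higher with library size alone and all 42 with the length-dependent scaling were among the 59. Atp5a1 reversed to -0.048 with library size alone and to -0.074 with the length-dependent scaling. The cause of these shifts was not tested. Of 3886 alternative values of members under the naming rule, 3851 stayed on the same side of the threshold, 22 lost a call, 11 gained one and 2 reversed. Of the 3851, 187 changed sign with no call in either fit. The replicate block by number gave 0 calls in TG and 0 in NAc. Same-numbered libraries correlated between -0.0156 and 0.035 in TG and between 0.0265 and 0.2452 in NAc, where replicate 3 was highest. Whether same-numbered libraries share more than a number was not tested. The mouse block, from the pairing of tissues, gave 58 higher and 4 lower, a median of 0.28, and 0 calls for the difference and the mean. The morphine mice and the fits without muscle-bearing libraries were chosen after seeing the data. Precision was lowest for members under 20 CPM: the standard error in TG was 0.40 for Ndufa13 and 1.05 for Cox6a2, or 0.36 for Cox6a2 without the muscle-bearing libraries. The part of depth in this was not tested.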
